A study of Mus musculus with 15 samples.

Results

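The 45 genes described here encode the working parts of the lysosome and the transcription factors known to control them. They were chosen by symbol from a fixed list and all 45 were found, each as 1 row, among the 47729 features of the count table. They comprise 9 cathepsins, 14 other hydrolases and lumenal proteins, and 6 membrane proteins. The rest are 13 subunits and accessory proteins of the vacuolar proton pump (V-ATPase) and 3 members of the TFEB family, called the family below. RNA was measured in macrophages sorted as F4/80+ CD64+ from the aorta of Apoe-/- mice (given in the labels as "Apoe dko mice"), which lack apolipoprotein E and develop atherosclerosis. All cells came from animals on a high fat diet for 4 weeks, and the labels' protocols describe technical replicate sorts of 100 to 200 cells from the pooled aortas of 4 female mice, amplified by Smart-Seq2, a PCR-based method for small cell numbers. The 2 groups, Olfr2+ and Olfr2-, share this genotype, sex and diet and are told apart by the labels as positive or negative for the olfactory receptor Olfr2. The sources used here give neither strain nor age. No separate animals are named for the numbered samples, so a p-value here reflects the spread among these samples alone, and that spread may be technical.

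Lysosomes are acidic compartments in which cells break down proteins, glycans, lipids and nucleic acids taken up from outside or delivered by autophagy. The V-ATPase pumps protons into them and the hydrolases work at the resulting low pH. Membrane proteins such as the LAMPs line the wall, and others export the products. TFEB and its relatives TFE3 and MITF bind short promoter motifs of many lysosomal genes, and in plaque macrophages this system handles the cholesterol esters of ingested lipoproteins.

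The libraries were very unequal. Olfr2- comprised numbered samples 1, 3 and 4 in 5 columns of the table, and Olfr2+ comprised numbered samples 2, 3 and 4 in 10 columns. Columns of a number were summed, giving 30.5 to 85.0 M counts (M, 1000000) for the Olfr2- samples and 67.5 to 363.9 M for the Olfr2+ samples. The columns fell into 2 depth sets: 76.0 to 95.6 M counts were in each of 7 Olfr2+ columns (all of sample 2, and 3A, 3B and 3C), called deep below, while the shallow Olfr2+ columns 3D, 4A and 4B held 29.9 to 37.6 M and the Olfr2- columns 30.5 to 53.2 M. The deep columns also stood apart in content, with 94.6 to 97.5% of counts on protein-coding genes against 78.5 to 85.6% in the other columns. The Olfr2 transcript itself went against the label, with 76, 34 and 35 counts in the Olfr2- samples and 1, 9 and 8 in the Olfr2+ samples, so directions below are between the libraries as labelled. Depth and label therefore move together, and fold changes are given over all columns and again without the deep columns, from counts below 60 M a column (Olfr2+ samples 3 and 4 against all 3 Olfr2- samples).

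Markers of several cell types differed between the same sets of columns. All 14 macrophage markers, the sorted proteins' genes Adgre1 (F4/80) and Fcgr1 (CD64) among them, were above 0 in every column, and their sum was 8411 to 16449 CPM (counts per 1000000 of the total) in the deep columns, 3436 to 5044 CPM in the shallow Olfr2+ columns and 2522 to 9168 CPM in the Olfr2- columns. 4 of the 14 (Lyz2, Cd14, C1qb and C1qc) were called higher over all columns. The list did not move as one: Lyz2 alone held 4740 to 10335 CPM of the sum in the deep columns, Itgam was at 24.7 to 132 CPM there against 151 to 518 CPM in all other columns, and Fcgr1 was at 0.772 to 3.43 CPM in the shallow Olfr2+ columns against 4.18 to 19.95 CPM in the Olfr2- columns. The 10 fibroblast markers, also above 0 in every column, summed to 30989 to 40559 CPM in the deep columns and 2216 to 5110 CPM in the other 8, and 9 of the 10 were called higher. B cell markers summed to 84.1 to 4415 CPM in the deep columns, 10374 to 15469 CPM in the shallow Olfr2+ columns and 2053 to 12830.5 CPM in the Olfr2- columns. Most of the sum outside the deep columns was Ighm, at 10109 to 15284 CPM in the shallow Olfr2+ and 2012 to 12534 CPM in the Olfr2- columns. Cd79b and Cd79a were highest in deep columns (229 CPM in 2A and 46.2 CPM in 3A), the other members outside them. Log2 fold changes over all columns were above 0 for 6 of the 7, with a median of 1.72 and none called. Smooth muscle markers summed to 74.7 to 207 CPM in the deep columns and 2.98 to 19.8 CPM in the others. The largest single values in the deep columns were of Smtn (113 CPM) and Myl9 (86.2 CPM). Cnn1 was at 0 to 0.0111 CPM and Des at 0 to 0.0466 CPM there, against 0.0376 to 1.92 and 0.169 to 4.24 CPM in the Olfr2- columns. Log2 fold changes of the 7 ran from -4.78 to 5.61 over all columns, with 5 above 0 and none called. For T and NK cell markers the medians were 2.96 CPM in the deep, 104 CPM in the shallow Olfr2+ and 161 CPM in the Olfr2- columns, and for dendritic cell markers 203, 400.2 and 924 CPM. The part of these cells, of depth and of the protein-coding share in the lysosomal results was not tested. In bulk samples, fewer cells of a type and less RNA per cell cannot be told apart.

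**Figure D1:**
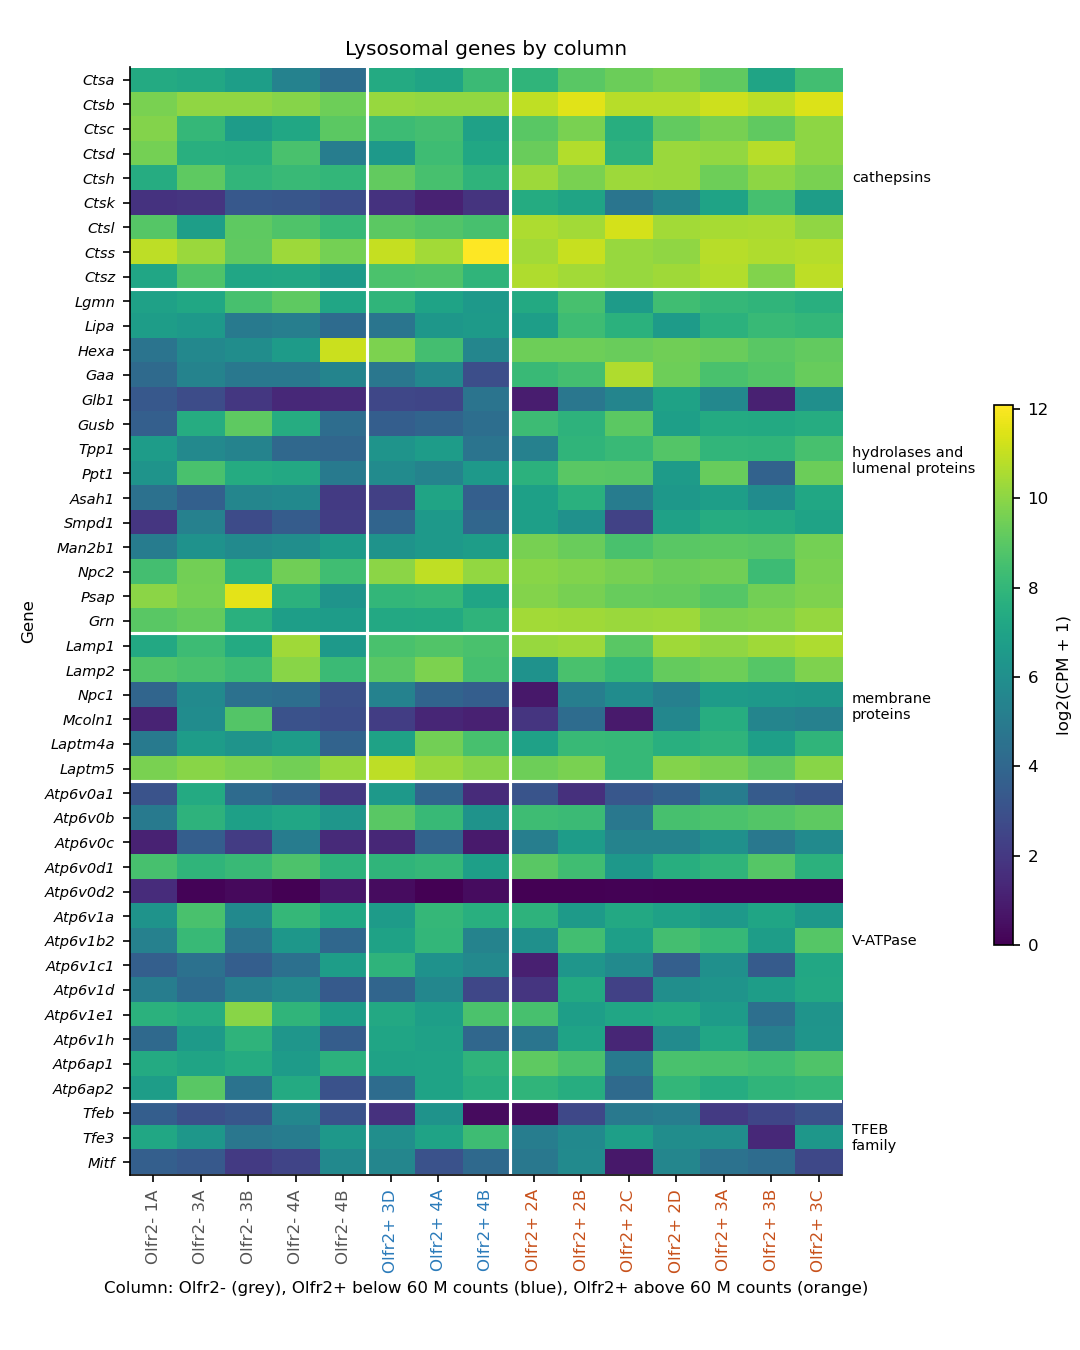
Level of the 45 lysosomal genes, as log2(CPM + 1) by colour, in each of the 15 columns (x axis), with genes grouped by class on the y axis. The 7 deep Olfr2+ columns at the right are brightest for Ctsb, Ctsl, Ctsz, Grn, Gaa and Man2b1, while most V-ATPase rows and the TFEB family show no such block and Atp6v0d2 is dark throughout.

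Over all columns, 3 of the 45 lysosomal genes rose in the libraries labelled Olfr2+ and none fell. They were the cathepsin Ctsz and the glycan hydrolases Gaa and Man2b1, with log2 fold changes of 3.63, 5.17 and 4.11. The other 42 did not pass. All 45 passed the filter on low counts. Beside these 3 members, 1.12% of the 24362 genes tested were called higher and 0.460% lower by edgeR's quasi-likelihood test at an adjusted p under 0.05. The log2 fold change was above 0 for 42 of the 45 members and for 52.5% of all genes tested. The unadjusted p was under 0.05 for 23 members and for 32.1% of all genes. In the median the members were at 2.19 on the log2 scale, and all genes tested at 0.24.

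These fold changes depend on the scaling. TMM, edgeR's default scaling, gave the Olfr2- samples factors of up to 1.66 and the Olfr2+ samples factors of 0.485 to 0.868, so a fold change from the fit is larger than the ratio of the plain CPM given below. With library totals alone the median of all genes moved to -0.88 and that of the members to 0.98, so the members lay 1.86 above all genes in place of 1.95. The fit was also limited to genes averaging 10 CPM or more, with the scaling recomputed on them. The members' median was then 0.49 and that of all such genes 0.17, a distance of 0.32. Log2 fold changes were above 0 for 30 of the 44 members tested there. With this limit and the scaling kept, the medians were 2.23 for the members and 1.67 for all such genes. With library totals edgeR called 0 members, beside 86 of the 24362 genes tested as higher. With those well-expressed genes and the scaling recomputed it called 0 members, beside 0 of 8504.

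With only the columns below 60 M counts, edgeR called 0 of the 45 members, as it called 0% of the 29989 genes tested as higher and 0% as lower. The unadjusted p was under 0.05 for 6 members and for 10.4% of all genes. The log2 fold change was above 0 for 35 members and for 40.2% of all genes. The members' median was 0.99 and that of all genes -0.43, so the distance between members and all genes was 1.42. Among genes averaging at least 10 CPM that distance was 0.26.

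**Figure D2:**
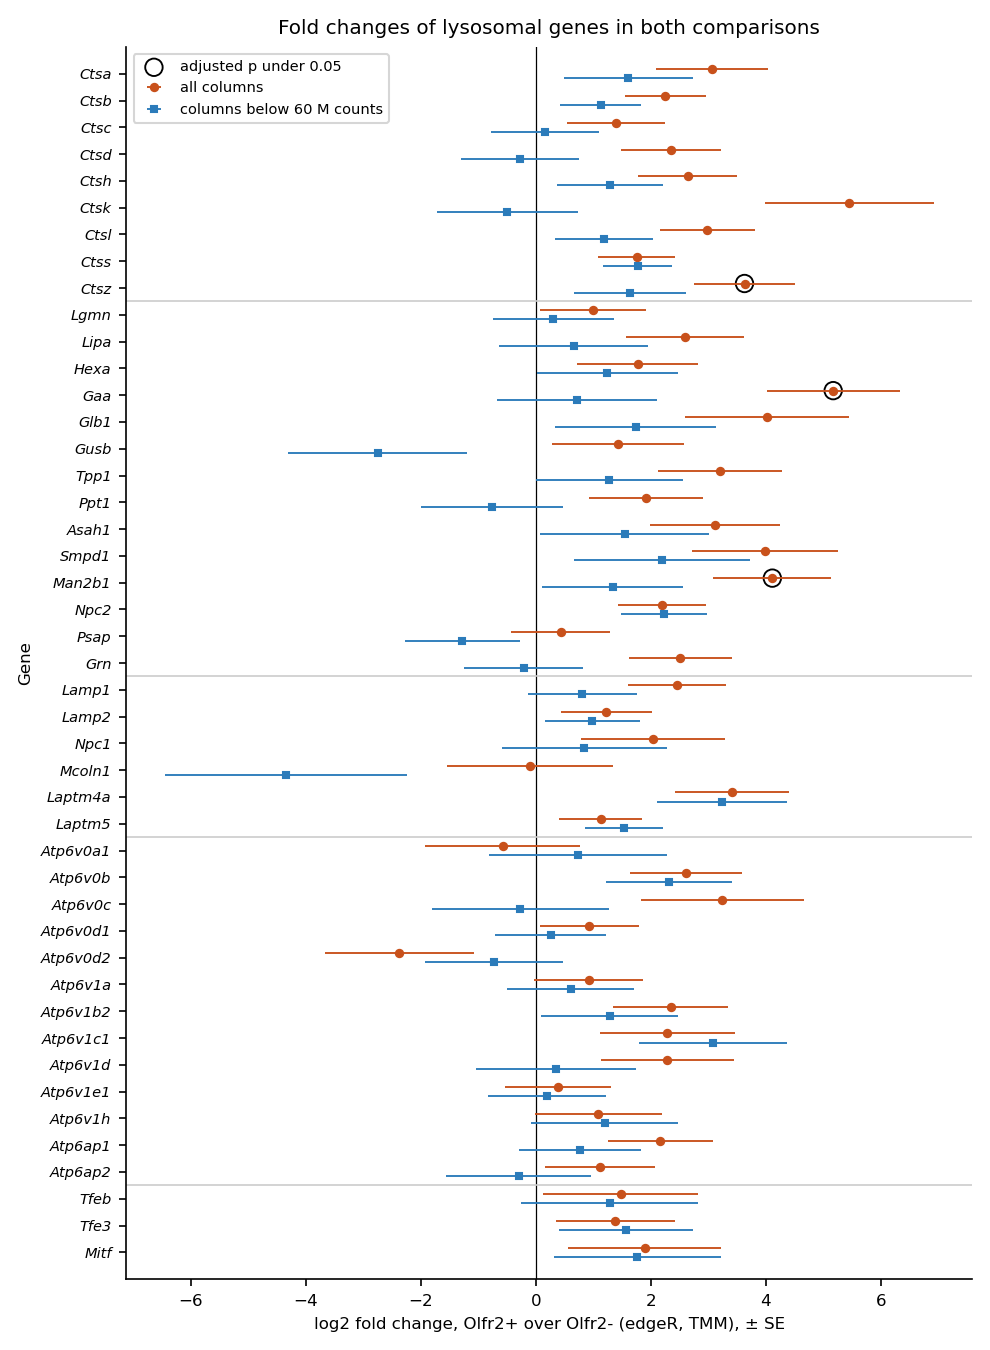
log2 fold change of each lysosomal gene (x axis, Olfr2+ over Olfr2-, ± SE from the edgeR fit) over all columns in orange and in the columns below 60 M counts in blue, with rings on Ctsz, Gaa and Man2b1, which passed. Orange points lie right of 0 for 42 genes and blue ones for 35, and the gap between the 2 colours is widest for Ctsk, Gaa, Gusb and Mcoln1.

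Cathepsins, the lysosomal proteases, had a median log2 fold change of 2.64 over all columns, the highest of the 5 classes. The other hydrolases were close at 2.56, and the order turned in some settings, as under limma-voom (2.57 for cathepsins and 2.94). In the columns below 60 M counts the cathepsin median was 1.19, and the TFEB family was higher at 1.57. That order turned without Olfr2+ sample 4, with 1.23 for cathepsins and 0.26 for the TFEB family. It also turned with genes averaging at least 10 CPM and the scaling recomputed, with 0.37 and 0.26. Over all columns 1 of the 9 cathepsins rose, the log2 fold changes of all 9 were above 0, and 8 of 9 had an unadjusted p under 0.05. Ctsz encodes cathepsin Z, a carboxypeptidase. It was at 142, 323 and 128 CPM in Olfr2- samples 1, 3 and 4 and at 1351, 1352 and 347 CPM in Olfr2+ samples 2, 3 and 4. Every Olfr2+ sample lay above every Olfr2- sample, but Olfr2+ sample 4, which holds only shallow columns, lay close to Olfr2- sample 3. Its log2 fold change was 3.63 (SE 0.88, adjusted p = 0.0427 by edgeR) over all columns and 1.64 (SE 0.97, adjusted p = 0.546 by edgeR) below 60 M counts. The call was kept only when Olfr2+ sample 4 was left out (adjusted p = 0.0385) and was lost when any of the other 5 samples was left out, with adjusted p from 0.0501 to 0.155.

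Ctss, cathepsin S, a protease of antigen presentation, had the highest level of any member per length. It was at 1866, 976 and 1040 CPM in the Olfr2- samples and at 1457, 1744 and 2694 CPM in the Olfr2+ samples, and the groups overlapped. Its log2 fold change was nearly the same in both comparisons, 1.75 (SE 0.66) over all columns and 1.77 (SE 0.60) below 60 M counts, and passed in neither. Here the highest value came from a shallow column, Olfr2+ 4B at 4358 CPM, and the deep columns were at 1093 to 2122 CPM.

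Ctsb, cathepsin B, a broad cysteine protease, was at 809, 1078 and 826 CPM in the Olfr2- samples and at 2136, 2173 and 1117 CPM in the Olfr2+ samples. The groups did not overlap, although Olfr2+ sample 4 lay just above Olfr2- sample 3, and the log2 fold change was 2.25 (SE 0.71, adjusted p = 0.0733 by edgeR). Ctsl, cathepsin L, was at 471, 270 and 365 CPM against 1705, 1248 and 415 CPM. Olfr2+ sample 4 lay inside the Olfr2- range, and the log2 fold change was 2.99 (SE 0.82, adjusted p = 0.056 by edgeR). Neither gene passed, and below 60 M counts their log2 fold changes were 1.13 and 1.19.

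Ctsk, cathepsin K, a collagen-degrading protease best known from osteoclasts and also made by fibroblasts, was singled out after its values were seen, for its difference between the deep and the shallow Olfr2+ columns. It was at 24.9 to 370 CPM in the 7 deep columns, at 1.25 to 2.54 CPM in the other Olfr2+ columns and at 2.36 to 9.02 CPM in the Olfr2- columns. The deep columns lay above all others with no overlap, while the shallow Olfr2+ columns (median 2.39 CPM) were mostly below the Olfr2- columns (median 6.36 CPM). The log2 fold change of Ctsk was 5.45 (SE 1.47, adjusted p = 0.0535 by edgeR) over all columns and -0.49 (SE 1.23) below 60 M counts. Ctsa, Ctsc, Ctsd and Ctsh, the other cathepsins, had log2 fold changes of 1.40 (Ctsc) to 3.06 (Ctsa) over all columns and of -0.27 (Ctsd) to 1.61 (Ctsa) below 60 M counts, with none past the threshold.

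The make-up of the cathepsin class differed between the depth sets. Measured per length, as CPM per kb, Ctss took 36.0 to 53.2% of the class's sum in the Olfr2- columns and 46.3 to 79.9% in the shallow Olfr2+ columns, but 19.5 to 30.2% in the 7 deep columns. Ctsz took 3.78 to 14.8% and 4.14 to 13.7% in the shallow columns of the 2 labels and 14.02 to 26.9% in the deep ones. Ctss was the leading cathepsin in every shallow column. Ctsz exceeded it in the deep columns 2A, 2D and 3C and stayed below it in the other deep columns. Before division by length, Ctsz was at 896 CPM and Ctss at 1627 CPM in 3B. In 2B they were at 1355 and 2122 CPM.

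**Figure D3:**
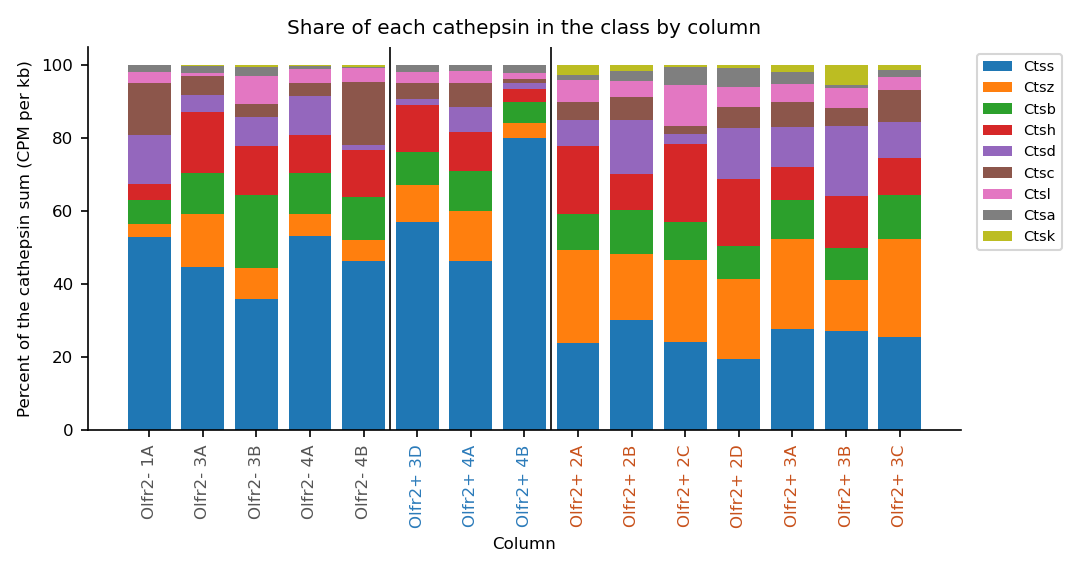
Share of each of the 9 cathepsins in the class's summed CPM per kb (y axis, percent) in every column (x axis), in the order Olfr2-, shallow Olfr2+ and deep Olfr2+, parted by black lines. Ctss takes the largest share in the 8 columns at the left, and in the 7 deep columns at the right its share is at most 30.2% while that of Ctsz is at least 14.02%.

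Among the 14 other hydrolases and lumenal proteins 2 rose, none fell and all 14 had log2 fold changes above 0 over all columns, with a median of 2.56. Below 60 M counts the median was 0.98 and 10 of 14 were above 0, but it was -0.10 among well-expressed genes with the scaling recomputed. Gaa encodes acid alpha-glucosidase, which digests lysosomal glycogen. It was at 16.9, 36.6 and 34.2 CPM in the Olfr2- samples and at 741, 430.5 and 30.5 CPM in the Olfr2+ samples. Olfr2+ sample 4 lay inside the Olfr2- range, so the rise rested on samples 2 and 3. Within sample 3 the deep columns were at 392, 468 and 616 CPM and the shallow column 3D at 26.9 CPM.

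The log2 fold change of Gaa was 5.17 (SE 1.16, adjusted p = 0.036 by edgeR) over all columns and 0.72 (SE 1.38, adjusted p = 0.87 by edgeR) below 60 M counts. Its call was lost without Olfr2- sample 3 (adjusted p = 0.0501) and without Olfr2+ sample 2 (adjusted p = 0.156). Man2b1, the lysosomal alpha-mannosidase, was at 32.7, 63.8 and 76.9 CPM in the Olfr2- samples and at 581, 521 and 98.2 CPM in the Olfr2+ samples. All Olfr2+ samples lay above the Olfr2- samples, sample 4 by the least. Its log2 fold change was 4.11 (SE 1.03, adjusted p = 0.0444 by edgeR) over all columns and 1.34 (SE 1.22) below 60 M counts. The call on Man2b1 was kept only without Olfr2+ sample 4 (adjusted p = 0.0372), and leaving out any other sample gave adjusted p of 0.0576 to 0.162.

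Npc2, the lumenal carrier that hands cholesterol to NPC1, had its highest values in other columns than these 2 genes. It was at 360.4, 534 and 541 CPM in the Olfr2- samples and at 822, 661 and 1588 CPM in the Olfr2+ samples. The groups did not overlap, and the shallow Olfr2+ columns (1011 to 1962 CPM) lay above both the deep ones (314 to 971 CPM) and the Olfr2- columns (213 to 725 CPM). The log2 fold change was 2.19 (SE 0.76, adjusted p = 0.0855 by edgeR) over all columns and 2.23 (SE 0.75, adjusted p = 0.422 by edgeR) below 60 M counts.

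Psap encodes prosaposin, the precursor of the saposins that present sphingolipids to their hydrolases. It was at 1022, 1649 and 157 CPM in the Olfr2- samples and at 731, 629.7 and 211 CPM in the Olfr2+ samples. The spread among the Olfr2- samples covered the whole Olfr2+ range, and the log2 fold change was 0.43 (SE 0.86), or -1.27 (SE 0.99) below 60 M counts. Grn, progranulin, a lysosomal chaperone precursor, was at 506, 457 and 107 CPM against 1299, 855 and 192 CPM. Its deep columns, at 826 to 1375 CPM, lay above all other columns, which were at 102 to 608 CPM, and its log2 fold change went from 2.52 (SE 0.90, adjusted p = 0.0893 by edgeR) to -0.21 (SE 1.04) without them.

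Hexa, the alpha subunit of beta-hexosaminidase, had the steadiest level of any member across the deep columns, 503 to 696 CPM, yet ranged from 24.1 to 2235 CPM across the Olfr2- columns. By sample it was at 24.1, 53.7 and 1026 CPM in Olfr2- and at 674, 607 and 215 CPM in Olfr2+. The high value of Olfr2- sample 4 came from column 4B alone, and the log2 fold change of Hexa was 1.77 (SE 1.05) over all columns and 1.25 (SE 1.22) below 60 M counts. Gusb, beta-glucuronidase, was the only member whose fold changes in the 2 comparisons had opposite signs and were both over 1 in size on the log2 scale. It was at 11.6, 315 and 109 CPM in the Olfr2- samples and at 297, 149.7 and 16.4 CPM in the Olfr2+ samples, with log2 fold changes of 1.42 (SE 1.15) over all columns and -2.75 (SE 1.55) below 60 M counts, neither past the threshold.

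The lipid and peptide hydrolases Lipa, Asah1, Smpd1, Ppt1, Tpp1 and Lgmn and the beta-galactosidase Glb1 had log2 fold changes of 1.00 (Lgmn) to 4.02 (Glb1) over all columns and of -0.76 (Ppt1) to 2.20 (Smpd1) below 60 M counts, and none passed. Lipa, lysosomal acid lipase, is named for its role in freeing cholesterol from ingested esters. It was at 105, 68.1 and 27.6 CPM in the Olfr2- samples and at 187, 221 and 88.8 CPM in the Olfr2+ samples, which overlapped. By numbered sample, Smpd1 (acid sphingomyelinase), Asah1 (acid ceramidase) and Glb1 did not overlap between the labels. Olfr2+ samples were at 56.3 to 140.2 CPM for Smpd1, 79.4 to 110.1 CPM for Asah1 and 13.4 to 49.6 CPM for Glb1. Olfr2- samples were at 2.76 to 26.7, 22.0 to 30.6 and 1.69 to 8.96 CPM. By column each of them overlapped. Olfr2+ columns went down to 4.15 CPM for Smpd1, 3.87 CPM for Asah1 and 0.943 CPM for Glb1. Olfr2- columns reached 39.3, 51.6 and 8.96 CPM.

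None of the 6 membrane proteins passed in either comparison, with medians of 1.63 and 0.92. Laptm5, a lysosomal protein of blood cells, was at 816, 938 and 934 CPM in the Olfr2- samples and at 669, 909 and 1122 CPM in the Olfr2+ samples, which overlapped. In plain CPM the label means were 896 ± 69.6 and 900.2 ± 227 (SD, n = 3 each), while the log2 fold change under TMM was 1.13 (SE 0.72) and that below 60 M counts 1.53 (SE 0.68).

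Lamp1, a main structural protein of the lysosomal wall, was at 156, 258 and 780 CPM in the Olfr2- samples and at 1079, 1196 and 422 CPM in the Olfr2+ samples. Olfr2- sample 4 lay above the lowest Olfr2+ sample, with 1307 CPM in its column 4A, and the log2 fold change was 2.46 (SE 0.85, adjusted p = 0.0841 by edgeR) over all columns and 0.81 (SE 0.95) below 60 M counts. Lamp2, its partner, was at 445, 365 and 689 CPM against 337, 654 and 617 CPM, with log2 fold changes of 1.23 (SE 0.79) and 0.99 (SE 0.83) in the 2 comparisons. The Lamp2 values of the labels overlapped in plain CPM.

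Laptm4a, a multispanning protein of late endosomes, was at 31.1, 92.6 and 63.1 CPM in the Olfr2- samples and at 219.96, 186 and 572 CPM in the Olfr2+ samples. The groups did not overlap, in either depth set, and its highest values were in the shallow columns 4A and 4B. The log2 fold change of Laptm4a was 3.41 (SE 0.99, adjusted p = 0.0634 by edgeR) over all columns and 3.24 (SE 1.12, adjusted p = 0.423 by edgeR) below 60 M counts. Npc1, the cholesterol exporter of the lysosomal membrane, had log2 fold changes of 2.04 (SE 1.25) and 0.85 (SE 1.44) in the 2 comparisons. Mcoln1, the calcium channel TRPML1, had a log2 fold change under TMM of -0.10 (SE 1.45) over all columns and -4.34 (SE 2.11) below 60 M counts, where Olfr2- column 3B alone held 467 CPM.

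The 13 V-ATPase genes were the least shifted of the large classes. None passed, 11 had log2 fold changes above 0, and the median was 1.12 over all columns and 0.61 below 60 M counts. On library totals those medians were 0.04 and -0.13, so below 60 M counts its direction turned with the scaling. Atp6v0d1, the ubiquitous d subunit of the membrane sector, was at 375, 258 and 337 CPM in the Olfr2- samples and at 277, 301 and 196 CPM in the Olfr2+ samples. The groups overlapped, with the Olfr2+ mean of 258 ± 55.0 CPM under the Olfr2- mean of 323 ± 59.7 CPM (SD, n = 3 each), while its log2 fold change under TMM was 0.93 (SE 0.86), or 0.26 (SE 0.96) below 60 M counts.

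Its paralog Atp6v0d2, known from osteoclasts and some macrophages, was nearly absent. It had 58, 12 and 22 counts in the Olfr2- samples and 7, 14 and 10 counts in the Olfr2+ samples, which is at most 1.90 CPM. The deep columns held 0 to 6 counts each, and the log2 fold change of Atp6v0d2 was -2.38 (SE 1.29) over all columns and -0.72 (SE 1.20) below 60 M counts. Of the pair, Atp6v0d1 was the one well above the low counts, at 87.3 to 507 CPM in every column.

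Atp6v0b, a proteolipid subunit of the rotor, was at 29.9, 184 and 116 CPM in the Olfr2- samples and at 255, 476 and 190.0 CPM in the Olfr2+ samples. The groups just failed to overlap, and the log2 fold change was 2.61 (SE 0.98, adjusted p = 0.0956 by edgeR) over all columns and 2.32 (SE 1.10) below 60 M counts. Atp6ap1, an accessory protein needed to assemble the pump, was at 166, 148 and 149 CPM against 338, 347 and 173 CPM, with a log2 fold change of 2.17 (SE 0.91, adjusted p = 0.118 by edgeR) over all columns and 0.77 (SE 1.07) below 60 M counts. Olfr2+ sample 4 again lay next to the Olfr2- samples.

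Atp6v1e1, a stalk subunit of the cytosolic sector, was at 208, 475 and 182 CPM in the Olfr2- samples and at 195, 76.7 and 242 CPM in the Olfr2+ samples, with log2 fold changes of 0.39 (SE 0.92) and 0.20 (SE 1.02) in the 2 comparisons. The groups overlapped. The other 8 genes of the pump, Atp6v0a1, Atp6v0c, Atp6v1a, Atp6v1b2, Atp6v1c1, Atp6v1d, Atp6v1h and Atp6ap2, had log2 fold changes of -0.57 (Atp6v0a1) to 3.25 (Atp6v0c) over all columns and of -0.30 (Atp6ap2) to 3.08 (Atp6v1c1) below 60 M counts. The value of Atp6v0c is uncertain because the table also lists a pseudogene copy, with which reads could be shared.

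The 3 listed transcription factors of the TFEB family ranked low per length and did not pass in either comparison. Tfe3 was at 147, 63.1 and 56.2 CPM in the Olfr2- samples and at 64.4, 50.9 and 216 CPM in the Olfr2+ samples, Tfeb was at 11.1, 7.34 and 29.6 CPM against 17.2, 4.52 and 40.4 CPM, and Mitf was at 11.5, 7.06 and 25.4 CPM against 32.6, 19.4 and 11.4 CPM. All 3 overlapped between the labels. Their log2 fold changes were 1.39 (SE 1.04), 1.48 (SE 1.35) and 1.90 (SE 1.33) over all columns and 1.57 (SE 1.16), 1.29 (SE 1.54) and 1.77 (SE 1.45) below 60 M counts. The family's median was thus 1.48 and 1.57, and it was the only class of the 5 whose median was not lower without the deep columns. This rested on Olfr2+ sample 4, without which the family's medians were 0.92 over all columns and 0.26 below 60 M counts. Unlike the cathepsins, the family's summed level was no higher in the deep columns, with a median of 94.9 CPM there, 207 CPM in the shallow Olfr2+ columns and 100.6 CPM in the Olfr2- columns.

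Because the family binds the E-box CACGTG and its extended form, the promoters of the members were searched for these letters. RefSeq promoter windows (build GRCm38.p6, 250 bases before to 50 after each start) matched 37 of the 45 members. The letters CACGTG, which read the same on both strands, were in 11 of the 37 (29.7%) and in 8.09% of the 27025 symbols with a window. The longer TCACGTGA, which contains CACGTG and also reads the same on both strands, was in 5 of the 37 (13.5%) and in 1.12% of all symbols. A variant, TCATGTGA on either strand, was in another 5 members, Atp6v0c, Ctss, Grn, Ppt1 and Tpp1, and in 1.15% of all symbols. Several windows of a symbol counted as 1, and a match is no proof of binding.

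The 6 stretches below show how the motif lies in a cathepsin pair, a channel, a membrane protein, a hydrolase and a pump subunit, with CACGTG in capitals, 5′ to 3′ on the gene's strand and ending at or before the start. Ctsa, Ctsd, Mcoln1 and Atp6v1a hold the longer form, Lamp1 holds the most copies, and Gaa is the called gene with a copy.
Ctsa (chr2:164833735-164833772, plus strand): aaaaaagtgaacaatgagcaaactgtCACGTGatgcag
Ctsd (chr7:142387894-142388077, minus strand): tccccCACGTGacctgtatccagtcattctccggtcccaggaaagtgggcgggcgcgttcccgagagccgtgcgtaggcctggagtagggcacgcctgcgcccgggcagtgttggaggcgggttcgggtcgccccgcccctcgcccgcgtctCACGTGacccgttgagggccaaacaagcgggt
Mcoln1 (chr8:3500422-3500505, plus strand): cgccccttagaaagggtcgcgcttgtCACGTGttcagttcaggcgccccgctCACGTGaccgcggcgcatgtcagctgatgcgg
Lamp1 (chr8:13159074-13159160, plus strand): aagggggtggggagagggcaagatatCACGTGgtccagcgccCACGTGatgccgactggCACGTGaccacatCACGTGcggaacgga
Gaa (chr11:119267797-119267854, plus strand): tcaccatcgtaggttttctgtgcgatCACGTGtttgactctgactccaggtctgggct
Atp6v1a (chr16:44139359-44139416, minus strand): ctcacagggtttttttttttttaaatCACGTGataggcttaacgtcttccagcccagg

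Members with CACGTG had a median log2 fold change of 2.46 over all columns and the other members with a window 1.91. Below 60 M counts the 2 medians were 0.72 and 0.88, so their order turned. For the longer TCACGTGA the medians were 0.93 with and 2.18 without it over all columns, and 0.26 and 0.90 below 60 M counts. For TCATGTGA they were 2.52 with and 2.03 without over all columns and turned to -0.21 and 0.79 below 60 M counts. Of the 3 members that rose, Gaa had CACGTG and Ctsz and Man2b1 had none of the 3 motifs in their windows.

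Per length of the main transcript, Ctss was the highest member under both labels, at 955 ± 366 CPM per kb in Olfr2- and 1450 ± 478 in Olfr2+ (SD, n = 3 each). Next in Olfr2- came Psap at 355 ± 282 and Laptm5 at 345 ± 26.8 CPM per kb, which did not differ beyond their spread. In Olfr2+ the second place was held by Ctsz at 706 ± 402, followed by Ctsh at 467 ± 258 and Lamp1 at 403 ± 187 CPM per kb, 3 neighbours that did not differ beyond their spread. Ctsz was in place 15 in Olfr2-, at 137 ± 75.2 CPM per kb. At the other end lay Atp6v0a1, Glb1, Mitf, Npc1 and Tfeb, with means of at most 13.5 CPM per kb under either label, and Atp6v0d2, last under both.

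**Figure D4:**
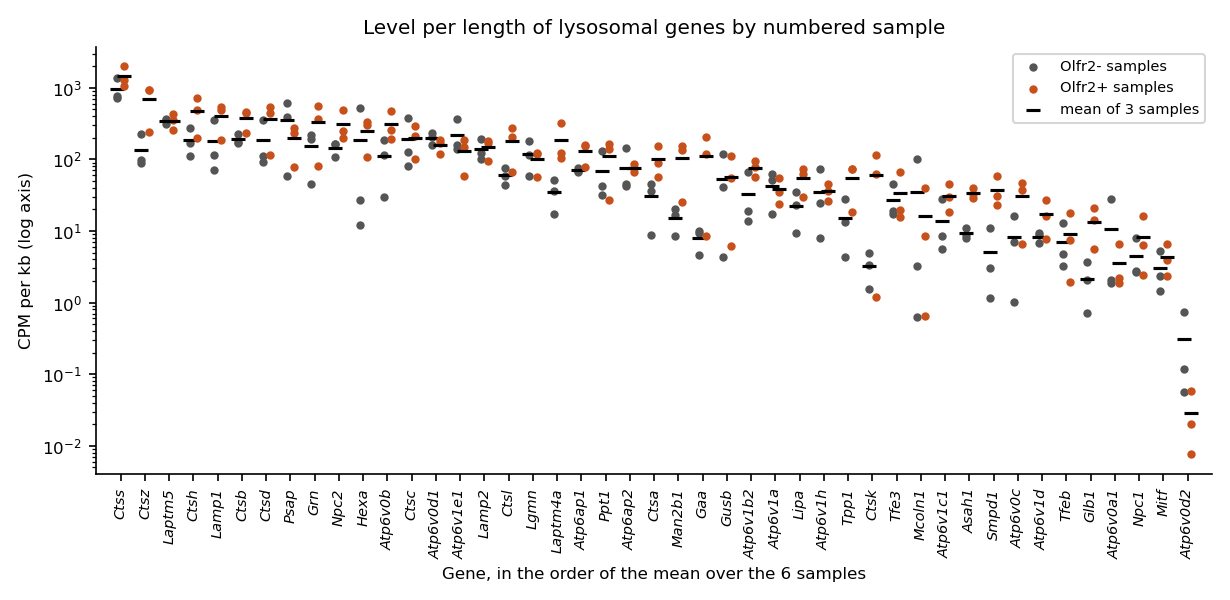
CPM per kb (log axis) of each lysosomal gene in the 3 Olfr2- samples (grey) and 3 Olfr2+ samples (orange), with bars for the means and genes in the order of the mean over the 6 samples. Ctss is highest with a mean of 955 in Olfr2- and 1450 in Olfr2+, and Atp6v0d2 is lowest, while orange and grey points interleave for most genes between them.

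The classes differed unevenly between the depth sets. The summed level of the 9 cathepsins was 2653 to 5320 CPM in the Olfr2- columns, 4564 to 6890.4 CPM in the shallow Olfr2+ columns and 9059 to 11714.5 CPM in the deep columns, so the deep columns lay above all others. In the medians the deep columns held 2.66 times the Olfr2- level and 1.81 times that of the shallow Olfr2+ columns. For the other hydrolases these ratios were 1.96 and 2.19 (deep columns at 4562 to 6982 CPM, Olfr2- columns at up to 4911 CPM), for the membrane proteins 1.49 and 0.945, for the V-ATPase 1.26 and 1.21, and for the TFEB family 0.943 and 0.458. The deep columns of the membrane proteins, the V-ATPase and the TFEB family overlapped both other sets.

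Relative to the macrophage markers, the summed level of the 45 members was 1.43 to 2.45 times the macrophage sum in the deep columns (median 1.66), 2.62 to 3.78 times in the shallow Olfr2+ columns (median 2.63) and 0.922 to 4.26 times in the Olfr2- columns (median 3.88). The deep columns lay below the shallow Olfr2+ columns on this measure and inside the Olfr2- range. The lower end of that range was column 4B alone, where Lyz2 held 7847 CPM of a macrophage sum of 9168 CPM. The cathepsins alone were at 0.712 to 1.12, 0.905 to 1.56 and 0.289 to 2.11 times that sum, ranges that overlapped.

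**Figure D5:**
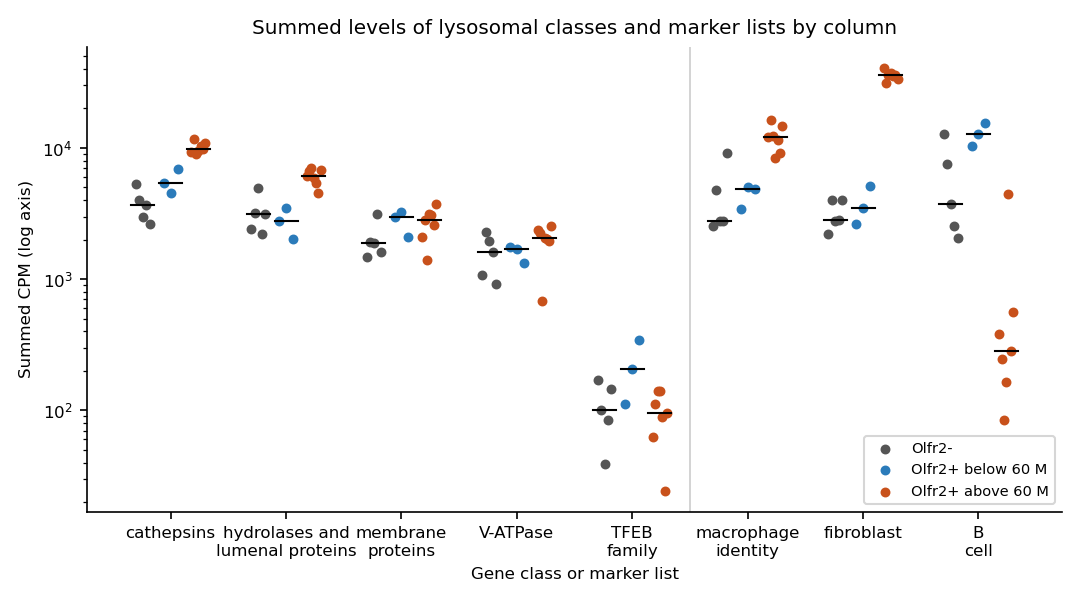
Summed CPM (log axis) of each lysosomal class and of 3 marker lists in the 5 Olfr2- (grey), 3 shallow Olfr2+ (blue) and 7 deep Olfr2+ columns (orange), with bars for the medians. Cathepsins in the deep columns lie at 9059 CPM or more, above all other columns, as do fibroblast markers at 30989 CPM or more, whereas membrane, V-ATPase and TFEB points overlap.

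Column by column, 9 members lay above every Olfr2- column in all 7 deep columns and none lay below. They were Ctsb, Ctsh, Ctsk, Ctsl, Ctsz, Gaa, Man2b1, Grn and Laptm4a, while among all features averaging at least 1 CPM, which 44 of the 45 members did, 3.33% lay above and 6.99% below. Against the shallow Olfr2+ columns, 13 members lay above in the deep columns and 1, Npc2, lay below, beside 4.52% and 9.48% of all features. The 13 comprised the same 5 cathepsins, Lipa, Gaa, Gusb, Man2b1, Psap, Grn, Lamp1 and Atp6v0c. Between the shallow Olfr2+ and the Olfr2- columns 3 members, Ctsb, Npc2 and Laptm4a, lay above and none below, beside 1.67% and 5.52% of all features. Columns of a sample are not replicates, so these counts carry no test.

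By numbered sample, 11 members were higher in every Olfr2+ sample over all columns and none lower, beside 6.21% and 29.8% of all genes tested. They were Ctsa, Ctsb, Ctsz, Glb1, Asah1, Smpd1, Man2b1, Npc2, Laptm4a, Atp6v0b and Atp6ap1. Below 60 M counts 9 were higher and 2, Ppt1 and Atp6v0d1, lower, beside 4.06% and 29.2%. Ctsa, Ctsb, Ctsz, Npc2, Laptm4a and Atp6v0b were in both sets of higher members. The comparisons are not independent, as they share the Olfr2- samples and Olfr2+ sample 4. All columns used below 60 M counts are also in the comparison over all columns.

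Repeats of the same library name differed widely for these genes. Between the 2 columns of a name the median fold over members was 1.46 (Olfr2+ 3A and 3B) to 3.51 (Olfr2+ 3C and 3D, the only pair that spans the depth sets). The largest single fold was 270, for Tfeb between Olfr2+ 4A at 72.3 CPM and 4B at 0.268 CPM. Across the 7 deep columns the highest value of a member was in the median 6.09 times its lowest, from 1.38 times for Hexa to 225 times for Mcoln1. In the Olfr2- columns that median was 7.54 and in the shallow Olfr2+ columns 3.43.

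The rest of the pathway, counted from lists of named genes, gave few calls. Among 30 other lysosomal hydrolases and activators none fell, and Ctsf, cathepsin F, rose by 5.74 on the log2 scale (SE 1.39, adjusted p = 0.0427 by edgeR). Below 60 M counts the log2 fold change of Ctsf was 1.33 (SE 1.37) and did not pass. The list's median was 2.76 over all columns and 0.33 below 60 M counts. The genes of this list with the most counts were Gm2a, the GM2 activator, at 156, 333 and 317 CPM in Olfr2- and 1419.6, 912 and 325 CPM in Olfr2+, and the nuclease Dnase2a, at 470.3, 639.9 and 539 CPM against 75.9, 33.6 and 343 CPM. Every Olfr2+ sample was below every Olfr2- sample for Dnase2a, whose log2 fold change was -0.90 (SE 0.92) over all columns and -0.43 (SE 0.94) below 60 M counts.

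None passed among 18 other lysosomal membrane proteins, 11 other V-ATPase subunits, 14 sorting genes, 7 cathepsin inhibitors and 15 genes that control TFEB and mTORC1, with medians of 1.76, 1.89, 1.62, 0.97 and 2.13 over all columns. Below 60 M counts the medians were 0.33, -0.30, 0.48, -0.85 (8 inhibitors tested) and 0.85, again with no call. Cst3, the secreted cathepsin inhibitor cystatin C, was the inhibitor with the most counts. It was at 1022, 1239 and 1309.7 CPM in the Olfr2- samples and at 2093, 2321 and 1473 CPM in the Olfr2+ samples, without overlap, with a log2 fold change of 1.95 (SE 0.68, adjusted p = 0.0852 by edgeR) over all columns and 1.34 (SE 0.64) below 60 M counts.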

How the data were processed

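The deposited values are raw whole-number counts per gene, not normalized, in 15 columns, made by the authors, with HTSeq named in the title of the table. Per the submitters' processing notes STAR 2.7.1, DRAGEN, DESeq2 1.34 and the build GRCm39 were used. For the annotation release and the strand setting, the sources used here give nothing. Reads of 1 molecule cannot be merged without molecular identifiers, and overlapping or antisense genes cannot be told apart.

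Titles were read as a sample number with a repeat letter, an assumption, and the columns carry 8 library names. Counts were summed per number. Column totals of 29.9 to 95.6 M set the precision, and the 60 M division follows the gap in them. Genes were tested with edgeR 4.0.16 in R 4.3.3 (quasi-likelihood F test, TMM, filterByExpr, Benjamini-Hochberg over all genes, threshold 0.05), and the SE was taken from the F statistic. Levels are CPM of the sample or column total, and CPM per kb uses the principal transcript of GENCODE M21. The text names members past the threshold, the 4 most abundant of each class, members whose log2 fold changes in the 2 comparisons differ in sign and are both over 1 in size (Gusb), the Atp6v0d1 pair and the TFEB family, and gives the rest by range. Ctsk, Lipa, Npc1, Mcoln1, Glb1, Asah1 and Smpd1 lie outside this rule and were added after their values were seen. The members, lists and tests were chosen with earlier results of these data known. Alternatives were DESeq2 1.42.0, limma-voom (limma 3.58.1), other scalings, filters and units, a depth covariate, a replicate block and leaving out each sample. The fit was tested on simulated data with known changes. Promoter windows are from RefSeq. 1 gene of the list of other hydrolases is not reported here.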

Additional observations from a re-analysis of the deposited data

Results flagged for a closer look

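In 22 of 90 groups (45 genes in 5 Olfr2- or 10 Olfr2+ columns) 1 column stood far above the others, and in none far below. The rule's rate of about 1 in 20 groups assumes normally distributed values, which plain CPM need not be. The 22 therefore cannot be read as an excess over chance. Columns that share a sample are also not independent. Among the 5 Olfr2- columns there were 12 such values. Column 3A stood out for Ctsz (432 CPM), Smpd1 (39.3 CPM), Atp6v0a1 (169 CPM) and Atp6v1b2 (287 CPM), 3B for Mcoln1 (467 CPM) and Atp6v1e1 (974 CPM), 4A for Lamp1 (1307 CPM), Lamp2 (984 CPM) and Tfeb (46.7 CPM), and 4B for Hexa (2235 CPM, next highest 99.9 CPM), Atp6v1c1 (104 CPM) and Mitf (52.5 CPM). The other 10 were among the Olfr2+ columns. Deep columns gave Ctsk in 3B (369.98 CPM), Gaa in 2C (1605 CPM), Glb1 in 2D (125 CPM) and Mcoln1 in 3A (183 CPM). Shallow columns gave Atp6v0a1 in 3D (88.1 CPM), Npc2, Laptm4a and Tfeb in 4A (1962, 725 and 72.3 CPM), and Ctss and Tfe3 in 4B (4358 and 327 CPM).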

How the results depend on the processing

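The 3 calls depended on the settings, and no setting called a member lower. edgeR called 4 members higher with DESeq2's size factors, beside 291 of 24362 genes. It called 4 without the filter on low counts, beside 642 of 42769 genes. On library totals it called 0, and also 0 with genes averaging at least 10 CPM and the scaling recomputed. With that filter and the scaling kept it called 6. There the share of all genes called higher was also larger than the 1.12% of the main fit. DESeq2 called 15, beside 4016 of 42769 genes, and limma-voom 0, beside 0 of 24362. With the 15 columns as samples, which share numbered samples, edgeR called 9, beside 649 of 20411 genes. With the 8 library names it called 14, beside 885 of 26043. With the depth set as a covariate it called 0, beside 0 of 25659 genes, and in the columns below 60 M counts 0, beside 0 of 29989. Leaving out 1 sample at a time gave 0 to 6 calls and medians of 1.86 to 2.53. The count was 0 without Olfr2- sample 3 or Olfr2+ sample 2, beside 68 of 27211 and 6 of 29390 genes called higher. It was 1 without Olfr2- sample 1, Olfr2- sample 4 or Olfr2+ sample 3. Beside it stood 100 of 26346, 90 of 26954 and 102 of 29378 genes. Without Olfr2+ sample 4 the count was 6, beside 973 of 29898 genes. The members' median of 2.19 was 0.98 on library totals, 0.49 with at least 10 CPM and recomputed scaling, 0.99 in the columns below 60 M counts and 0.90 with the depth covariate. Below 60 M counts DESeq2 called 2 members, Laptm4a and Atp6v1c1, beside 1035 of 42353 genes higher, with 0 members by edgeR. The median of 0.99 there was 0.18 on library totals and 0.15 with at least 10 CPM. The cause of these differences was not tested. With the sample number as a replicate block 0 members were called, beside 2 of 24362 genes higher, and the members' median was 1.59. Samples that share a number correlated at 0.01 (number 3) and -0.05 (number 4), and pairs with different numbers at -0.13 to 0.14. These are correlations of deviations from means of 3 samples. They cannot show whether samples of a number share more than the number. Between 0 and 12 members, none of them called, changed sign under any single setting. Leaving out 1 sample where it leaves Olfr2+ with 1 assumes that this sample varies like the others. Depth limits Atp6v0d2 most, with 7 to 58 counts a sample.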
